A study of Mus musculus with 8 samples.

Results

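The 10 genes described here encode enzymes of branched-chain amino acid catabolism and 1 kinase that controls it: Bcat2, Bckdha, Bckdhb, Dbt, Bckdk, Ivd, Mccc1, Pcca, Pccb and Hibch. They were picked by symbol, as probe sets annotated to exactly 1 of these genes. Each had a single such probe set, so all 10 of 10 were measured, out of 22180 genes on the array. Transcript levels were compared in epididymal white adipose tissue (eWAT, a visceral fat pad of the male mouse) between Abhd15 knockout mice (KO, n = 5) and wild-type mice (WT, n = 3). All were males of the C57BL/6J background on normal chow, aged 14 weeks, that were fasted overnight and then given chow for 1 h. Abhd15 encodes an alpha/beta-hydrolase fold protein that is abundant in adipocytes, and the labels name no cell type to which its loss is limited. Each array held RNA of 1 mouse. The labels do not say whether the mice were littermates, so the p-values measure the spread between these 8 animals.

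Leucine, isoleucine and valine are broken down in mitochondria. BCAT2 first moves their amino group to 2-oxoglutarate, and the branched-chain keto acid dehydrogenase complex (BCKDH) then commits the keto acids to oxidation. The complex is built from E1 alpha (BCKDHA), E1 beta (BCKDHB), the E2 acyltransferase core (DBT) and an E3 subunit (DLD) shared with other dehydrogenases. The kinase BCKDK switches E1 alpha off by phosphorylation and the phosphatase PPM1K switches it back on. Below this step the routes part, with IVD and the carboxylase MCCC1/MCCC2 on the leucine route, HIBCH on the valine route, and the propionyl-CoA carboxylase PCCA/PCCB taking up the propionyl-CoA from isoleucine and valine. Adipocytes are known to use these amino acids as a carbon source for lipid.

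The 3 subunit genes particular to BCKDH read lower in every KO array than in any WT array, with log2 fold changes of -0.36 to -0.47. The kinase gene Bckdk lay within 0.02 of its WT mean, and Pccb was higher in every KO array than in any WT array, by 0.28 on average. Bckdk and the other 5 members overlapped between the groups. None of these differences passed the threshold of 0.05 after adjustment over the 11090 genes tested, and neither did any other gene (0% called by limma, a linear model with moderated variances). Without adjustment, 3 of the 10 members (30%) had a limma p under 0.05, all lower in KO, against 10.5% of all tested genes (1164 genes, 6.46% lower and 4.04% higher in KO). Groups did not overlap for 4 of 10 members (40%), 3 lower and 1 higher, against 8.53% of all tested genes (5.54% lower and 2.99% higher). No test was made of the 10 genes as a list. Their median log2 fold change was -0.025 and that of all tested genes -0.028, with 3 members above 0 and 7 below.

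Signals are RMA log2 values (robust multi-array average), in which a difference of 1 is a doubling, and they are compared here between mice for each gene and not between genes. All 10 members passed the filter on low signal by a wide margin, with means over the 8 arrays from 6.97 (Bcat2) to 8.90 (Pccb) against a filter of 3.61. The array is of bulk tissue, so fewer cells of a type and less RNA per cell cannot be told apart. Of the mature adipocyte markers, 15 of 16 were measured, and defining genes such as Fabp4 (12.7 to 12.8) and Cidec (12.1 to 12.3) were high in all arrays. Of the 15 tested, 10 lay below 0 and 5 above, with a median of -0.12. An unadjusted limma p under 0.05 was found for 3 (20%, against 10.5% of all tested genes), 2 lower and 1 higher in KO. The mean of these markers was 10.6 to 10.7 in WT and 10.3 to 10.7 in KO, lowest in KO 4 and KO 5. For Abhd15 itself, the kept probe set read 5.60 to 6.27 in KO arrays and 6.15 to 6.45 in WT arrays. The array labelled KO 3 (6.27) lay among the WT values. With the mean of the 2 Abhd15 probe sets the log2 fold change was -0.56, against -0.43 with the kept one. Whether either probe set falls within the deletion is not known here, so they check no label. Genes of the epididymis and seminal vesicle, which border this fat pad, averaged 5.25 in KO 4 and 3.20 in WT 1 against 1.91 to 2.29 in the other arrays. Genes of testis and sperm averaged 5.81 in WT 1, 4.795 in WT 2 and 4.39 in KO 4, against 3.01 to 3.50 in the others. Macrophage genes averaged 7.32 to 7.47 in WT and 7.11 to 7.48 in KO, with no unadjusted limma p under 0.05 among 13 tested.

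**Figure D1:**
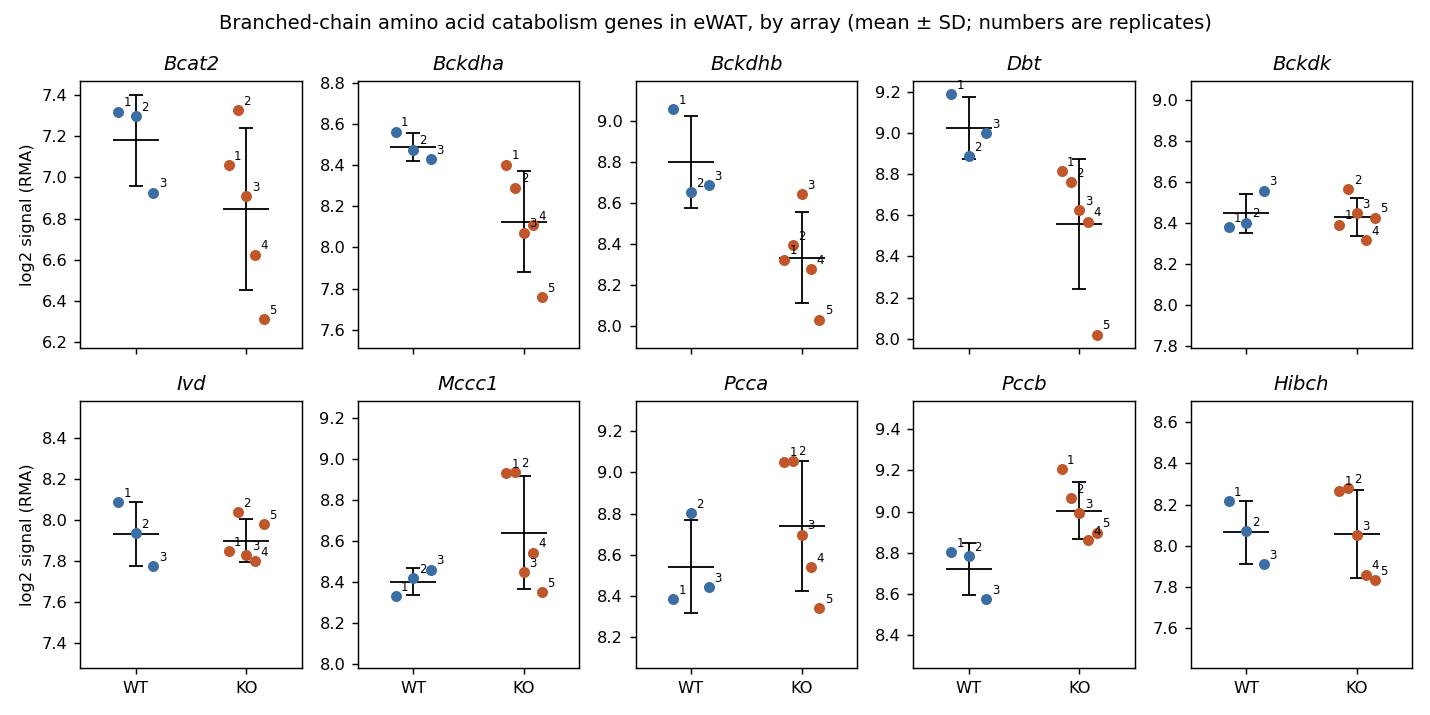
Log2 signal (y axis) of each of the 10 members in the 3 WT and 5 KO arrays (x axis), 1 point per mouse numbered by replicate, with the group mean and SD as a line and bars. Every panel spans the same height, and the groups are fully apart for Bckdha, Bckdhb, Dbt and Pccb.

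Bcat2, the mitochondrial aminotransferase of the first step, read 7.32, 7.30 and 6.93 in WT and 7.06, 7.33, 6.91, 6.62 and 6.31 in KO. The means were 7.18 ± 0.221 (SD, n = 3) and 6.85 ± 0.393 (SD, n = 5), a limma log2 fold change of -0.34 (SE 0.221, adjusted p = 0.619). KO 2 was the highest of all 8 arrays and KO 5 the lowest, so the groups overlapped. Its cytosolic counterpart Bcat1 stood at 2.89 to 3.79 with a mean below the filter on low signal, and was not tested. The Bcat2 fold change was -0.083 with the replicate number as a block, -0.17 with array weights, -0.20 without KO 5, and -0.21 without WT 1 and KO 4. It was -0.57 without KO 1 and KO 2, the highest KO arrays for this gene. The groups then had no overlap, as for 15.8% of all tested genes in that setting. That was the only 1 of the 18 alternatives in which the unadjusted limma p of Bcat2 was under 0.05.

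Bckdha, the E1 alpha subunit that carries the regulatory phosphorylation, read 8.56, 8.48 and 8.43 in WT and 8.40, 8.29, 8.07, 8.11 and 7.76 in KO. All KO values lay below all WT values, with KO 1 just under the lowest WT array. The log2 fold change was -0.36 (SE 0.155), a signal ratio of 0.778, with a limma p of 0.0414 before and 0.454 after adjustment.

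Bckdhb, the E1 beta subunit, read 9.06, 8.65 and 8.69 in WT and 8.32, 8.39, 8.64, 8.28 and 8.03 in KO. The separation was narrow at 1 point, since KO 3 (8.643) lay barely below WT 2 (8.651). The fold change was -0.46 (SE 0.162), a ratio of 0.725, with a limma p of 0.0171 before and 0.364 after adjustment.

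Dbt, the E2 core to which the other subunits bind, read 9.19, 8.89 and 9.0 in WT and 8.81, 8.76, 8.63, 8.57 and 8.02 in KO. Here too every KO array lay below every WT array. The fold change was -0.47 (SE 0.186), a ratio of 0.723, with a limma p of 0.0304 before and 0.423 after adjustment. An exact two-sided permutation test gave p = 0.0357 for each of the 3 genes, the smallest that 3 against 5 arrays can give. Averaged within each array, the 3 subunits stood at 8.94, 8.67 and 8.70 in WT and at 8.51, 8.48, 8.45, 8.32 and 7.94 in KO.

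Single arrays weighed on the size of these 3 differences. KO 5 was the lowest array for all 3 genes, and it also had the lowest median over the tested genes (5.93, against 6.03 to 6.07 in the others) and the lowest mean of adipocyte markers (10.3). Its part in the result was not tested beyond leaving it out. The fold changes were then -0.27 for Bckdha, -0.39 for Bckdhb and -0.33 for Dbt. WT 1, with raised means of seminal vesicle and of testis genes, was the highest for all 3, and without it no member had an unadjusted limma p under 0.05 (Bckdha -0.33, Bckdhb -0.33, Dbt -0.39). With the replicate number as a block, a fit that rests on KO 1 to KO 3, none of the 3 had an unadjusted p under 0.05 (-0.23, -0.34 and -0.29), while Pcca (0.39) and Pccb (0.37) did. That is 2 of 10 members, near the 18.0% of all tested genes in that fit. Arrays were also centred on the median of all probe sets, which differs from the median over the tested genes. It was lowest in KO 1 (2.93) and stood at 3.09 in KO 5. After this centring, only Bckdhb kept a limma p under 0.05 and only Bckdhb and Pccb stayed free of overlap. With 1 array left out, Bckdhb lost its unadjusted p under 0.05 without WT 1 only, and Dbt without WT 1 or WT 3. Bckdha lost it without any of the 3 WT arrays, KO 3, KO 4 or KO 5. With both WT 1 and KO 4 left out, no member had such a p. All 3 genes were lower in KO under each of the 18 alternative settings, and none passed after adjustment. Endothelial markers were also mostly lower, with means of 7.08 to 7.43 in WT and 6.95 to 7.11 in KO, 10 of 15 below 0 and 5 above. An unadjusted limma p under 0.05 was found for 7 (46.7%, against 10.5% of all tested genes), 6 lower and 1 higher (Cldn5, 0.61). The part of endothelial markers in the values of the 3 subunits was not tested.

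**Figure D2:**
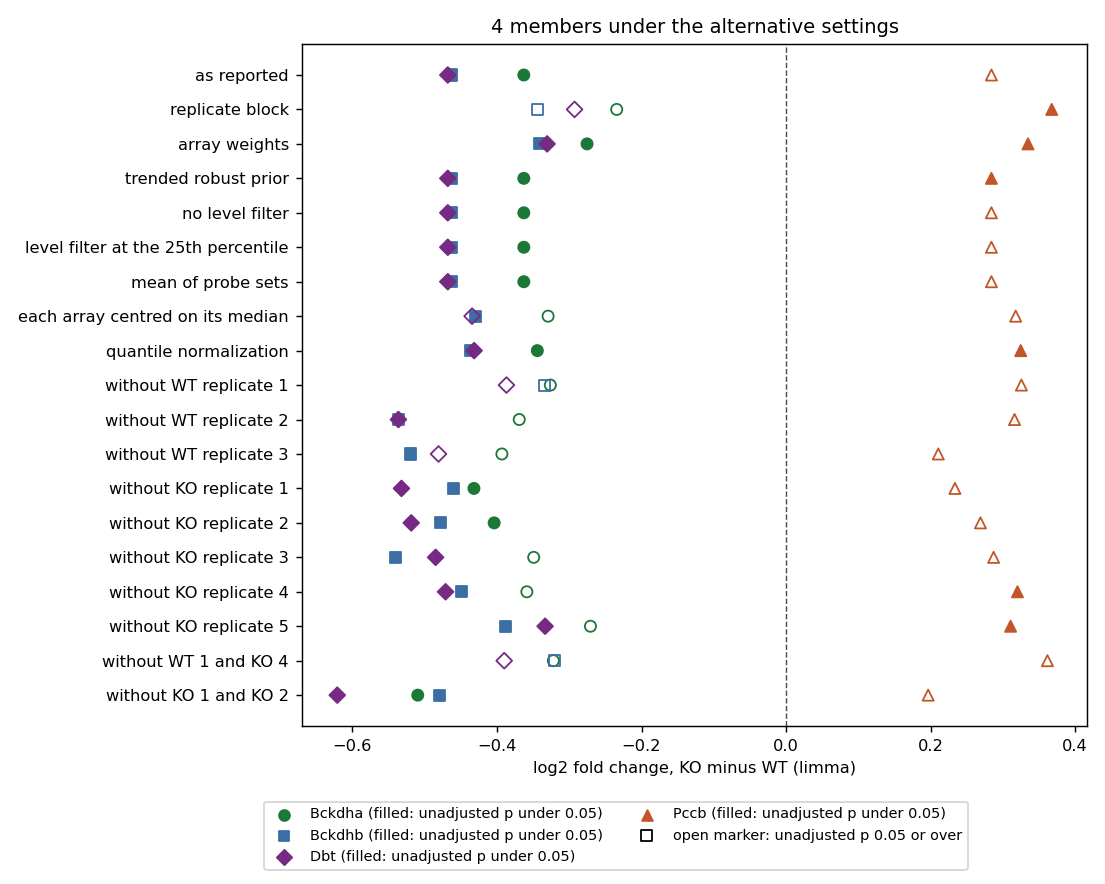
Log2 fold change of KO against WT (x axis) for Bckdha, Bckdhb, Dbt and Pccb under the reported setting and the 18 alternatives (y axis), with filled markers where the unadjusted limma p was under 0.05. The 3 BCKDH genes lie left of 0 and Pccb right of 0 in every row, with Pccb between 0.20 and 0.37.

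Since Bckdha and Bckdhb encode the partner chains of E1 and read lower, and Pccb read higher, the DNA in front of these 3 genes is shown, from RefSeq on GRCm38.p6. Promoter entries were found for 9 of the 10 members, all except Dbt. Each run is the 250 bases before the start site, 5′ to 3′ on the gene's strand, and capitals mark CCAAT boxes (CCAAT) and GC boxes (GGGCGG) on either strand. Bckdha is from chr7:25658762-25659011 (minus strand), Bckdhb from chr9:83924887-83925136 (plus strand, the first of 2 listed starts) and Pccb from chr9:101034885-101035134 (minus strand).
Bckdha: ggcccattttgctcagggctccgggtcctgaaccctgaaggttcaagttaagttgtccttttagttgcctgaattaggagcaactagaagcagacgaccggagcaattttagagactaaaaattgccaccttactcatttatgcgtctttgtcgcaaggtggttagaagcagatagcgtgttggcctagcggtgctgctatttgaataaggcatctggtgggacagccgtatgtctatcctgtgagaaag
Bckdhb: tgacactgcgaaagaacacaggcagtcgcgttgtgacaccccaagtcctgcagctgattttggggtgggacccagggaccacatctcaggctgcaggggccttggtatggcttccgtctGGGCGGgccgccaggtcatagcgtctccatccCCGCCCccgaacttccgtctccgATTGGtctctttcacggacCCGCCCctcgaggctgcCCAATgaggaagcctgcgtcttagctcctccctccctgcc
Pccb: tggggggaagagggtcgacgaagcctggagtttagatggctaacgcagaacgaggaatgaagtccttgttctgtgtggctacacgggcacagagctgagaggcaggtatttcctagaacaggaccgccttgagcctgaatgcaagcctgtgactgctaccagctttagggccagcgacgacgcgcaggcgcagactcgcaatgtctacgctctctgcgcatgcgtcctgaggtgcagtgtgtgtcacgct
The Bckdhb window held 2 CCAAT boxes and 3 GC boxes and was 63.2% G or C. The window of its other listed start, chr9:83948531-83948780, held neither motif and was 36.4% G or C. Those of Bckdha (47.6%) and Pccb (57.6%) held neither motif. Over all 32851 windows of this length, 33.8% held 1 or more CCAAT boxes and 32.7% 1 or more GC boxes, so holding either motif is not unusual. Among all windows, those with as many copies as that of Bckdhb, or with both motifs, were not counted. Of the other members, Ivd held 4 CCAAT boxes, Hibch 5 GC boxes, and Mccc1 3 CCAAT boxes and 1 GC box. Each Pcca window held 1 CCAAT box, 1 of them with 2 GC boxes. Bckdk held 1 CCAAT box, and no Bcat2 window held either motif. No window of a member held the cAMP response element TGACGTCA (1.55% of all windows), the E-box CACGTG (6.02%) or the PPAR element, a pair of AGGTCA copies 1 base apart (0.0335%), all searched on both strands. A match or its absence in these letters is a description only, and which start is used in this tissue is not known here.

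Bckdk, the kinase that inactivates BCKDH, read 8.38, 8.40 and 8.56 in WT and 8.39, 8.56, 8.45, 8.31 and 8.43 in KO. Its log2 fold change was -0.016 (SE 0.116, adjusted p = 0.972 in limma), with a 95% interval from -0.27 to 0.24, and its sign turned under centring (0.017) and quantile normalization (0.0090). Within each array, Bckdk minus the mean of the 3 BCKDH subunits was -0.56, -0.27 and -0.15 in WT and -0.12, 0.084, 0.0020, -0.0040 and 0.49 in KO. That difference was thus higher in every KO array, by 0.41 on average, with KO 1 close to WT 3. This mostly restates the lower mean of the 3 subunits (-0.43), since Bckdk itself hardly differed. The difference was computed after the values had been seen and was not tested. Only its change between groups can be read, since signals of different probe sets have no common scale. Ppm1k, the opposing phosphatase, read 7.84, 7.0 and 6.76 in WT and 6.44, 6.29, 6.73, 6.49 and 6.13 in KO. All KO values were lower, though KO 3 (6.734) lay barely below WT 3 (6.755). The log2 fold change was -0.78 (SE 0.237), and -0.46 without WT 1, the highest array. The limma p was 0.00805 before and 0.328 after adjustment. Bckdk minus Ppm1k was 0.54 to 1.80 in WT and 1.71 to 2.30 in KO, which overlap. Bckdha minus Bckdhb overlapped as well, at -0.49 to -0.17 in WT and -0.57 to 0.079 in KO. Dld, the shared E3 subunit, differed by 0.019 (SE 0.175, adjusted p = 0.977 in limma).

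**Figure D3:**
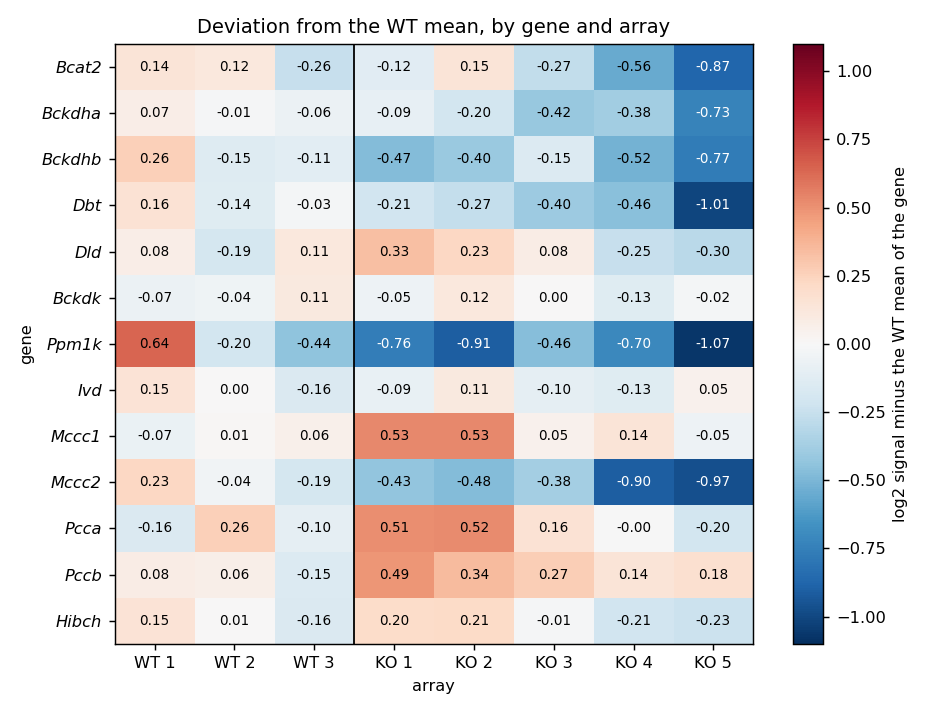
Log2 signal minus the gene's WT mean (colour and printed value) for the 10 members with Dld, Ppm1k and Mccc2 (rows) in the 8 arrays (columns, WT left of the line). Bckdha, Bckdhb, Dbt, Ppm1k and Mccc2 are below 0 in all KO arrays, Pccb is above 0 in all of them, and KO 1 and KO 2 are the highest for Mccc1 and Pcca.

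On the leucine route, Ivd, the dehydrogenase of isovaleryl-CoA, read 8.09, 7.94 and 7.78 in WT and 7.85, 8.04, 7.83, 7.80 and 7.98 in KO. Its log2 fold change was -0.034 (SE 0.125, adjusted p = 0.948 in limma), with a 95% interval from -0.31 to 0.24, and the KO values lay inside the WT range. Mccc1, the biotin-carrying subunit of methylcrotonyl-CoA carboxylase, read 8.33, 8.42 and 8.46 in WT and 8.93, 8.93, 8.45, 8.54 and 8.35 in KO. Its fold change was 0.24 (SE 0.165, adjusted p = 0.641 in limma), and 0.044 without KO 1 and KO 2, the highest arrays. Mccc2, the partner subunit of the same enzyme, read 8.71, 8.44 and 8.29 in WT and 8.05, 8.01, 8.11, 7.58 and 7.51 in KO. All KO values lay below WT, with a log2 fold change of -0.63 (SE 0.180). The limma p was 0.00566 before and 0.308 after adjustment. Mccc1 minus Mccc2 within each array was -0.38, -0.023 and 0.17 in WT and 0.88, 0.93, 0.34, 0.96 and 0.84 in KO. That difference was higher in KO by 0.87 on average with no overlap between the groups. It was computed after the values had been seen and was not tested.

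Pccb, the carboxyltransferase subunit of propionyl-CoA carboxylase, read 8.80, 8.78 and 8.57 in WT and 9.21, 9.07, 8.99, 8.86 and 8.90 in KO. All KO values lay above all WT values, the closest being KO 4. The log2 fold change was 0.28 (SE 0.128), a ratio of 1.22, with a limma p of 0.0512 before and 0.476 after adjustment and an exact two-sided permutation p of 0.0357. Without adjustment its limma p was under 0.05 without KO 4, without KO 5, with the replicate block, with array weights, with a trended robust prior and with quantile normalization. Pcca, the biotin-carrying partner, read 8.38, 8.80 and 8.44 in WT and 9.05, 9.06, 8.70, 8.54 and 8.34 in KO. Its fold change was 0.20 (SE 0.194, adjusted p = 0.760 in limma) and the groups overlapped. Pcca minus Pccb was -0.42 to 0.017 in WT and -0.56 to -0.0070 in KO, so these partners, unlike those of the leucine carboxylase, did not separate the groups. Pcca was highest in KO 1 and KO 2, and its fold change was -0.016 without them. In the same arrays 12 immediate early genes, a list added after values were seen, averaged 6.987 and 6.985, against 5.08 to 6.07 in the other arrays, and all 11 of them that were tested lay above 0 in KO. Their part in the Mccc1 and Pcca values was not tested.

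Hibch, which frees 3-hydroxyisobutyrate on the valine route, read 8.22, 8.07 and 7.91 in WT and 8.27, 8.28, 8.05, 7.86 and 7.83 in KO. Its log2 fold change was -0.0081 (SE 0.152, adjusted p = 0.990 in limma), with a 95% interval from -0.35 to 0.33, and its sign turned under centring (0.026) and quantile normalization (0.015).

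**Figure D4:**
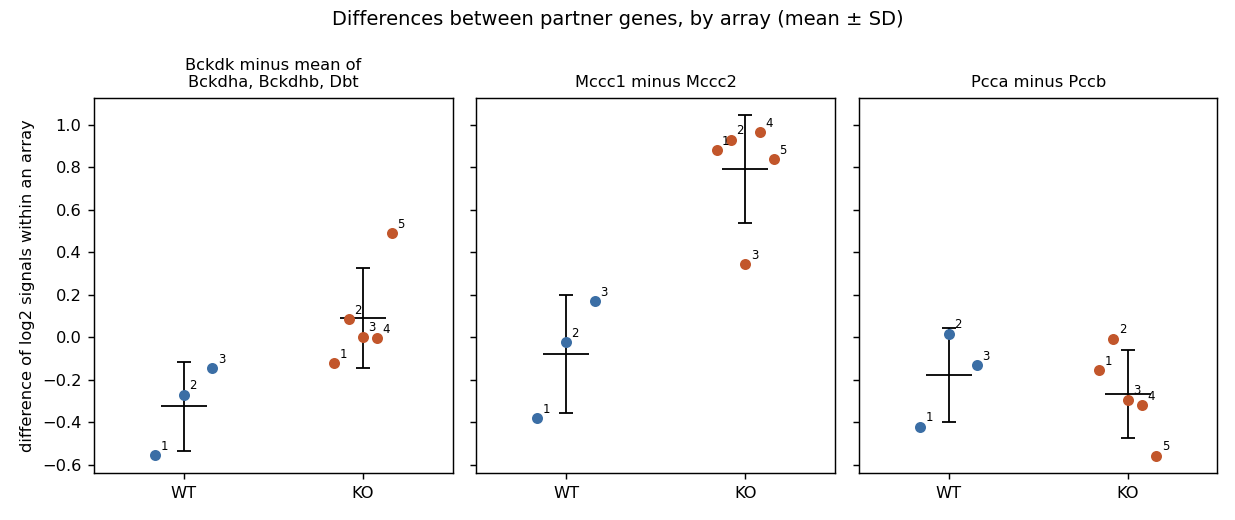
Difference of log2 signals within each array (y axis) for 3 pairings of partner genes, in WT and KO (x axis), 1 point per mouse with group mean and SD. The groups are apart for Bckdk against the BCKDH subunits and for Mccc1 against Mccc2, and overlap for Pcca against Pccb.

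Many of the members also varied together within the groups, though Bckdk and Ivd followed the others weakly. KO 5 was lowest for 6 of the 10 members and KO 2 highest for 5. Over the 8 arrays, 37 of 45 pairs of members had a Pearson r above 0 (median 0.24), and with group means removed 42 of 45 did (median 0.58). In the latter, r with the other members was -0.099 to 0.38 for Bckdk and -0.031 to 0.48 for Ivd. The share of such pairs among all tested genes was not computed. The pair most alike was Bckdha and Dbt (r = 0.967, and 0.936 with group means removed). Bckdhb and Pccb went most apart over the 8 arrays (r = -0.42), but not with group means removed (r = 0.37). These pairs share their arrays, and the values are a description. The mean profile of the 10 members was compared with tested genes outside the list, passing over genes with only a predicted or clone name and small RNAs. It was matched most closely by Fbxl4 (r = 0.990), Copg1 (0.981), Lsm10 (0.975), Pf4 (0.973), Chpt1 (0.969) and Psmb6 (0.968) over the same 8 arrays. For all 6 the highest adjusted p was 0.949 and the lowest 0.779 in limma, and all were lowest in KO 5. They were chosen for this match, so these traits follow from the choice and carry no separate weight.

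Of 23 other enzymes and cofactor proteins of the pathway, 22 were measured and 21 tested. No gene of this list passed after adjustment in limma, and 4 (19.0%, against 10.5% of all tested genes) had an unadjusted p under 0.05. Mccc2 and Ppm1k were lower in KO, as above. Mcee, which epimerises methylmalonyl-CoA just below propionyl-CoA carboxylase, was higher by 0.42 (SE 0.166, adjusted p = 0.417 in limma), with KO 4 inside the WT range. Hadh, a 3-hydroxyacyl-CoA dehydrogenase best known from fatty acid oxidation, was higher by 0.32 (SE 0.135, adjusted p = 0.442 in limma). Every KO array lay above WT, but KO 5 (10.685) barely above WT 2 (10.681). The median of the list was 0.019, with 12 genes above 0 and 9 below. With 1 array left out, Mccc2 and Ppm1k kept an unadjusted p under 0.05 in each case. Mcee lost it without WT 1, WT 2, KO 1, KO 2 or KO 3 (0.31 to 0.41), and Hadh without any of these or WT 3 (0.25 to 0.36).

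**Figure D5:**
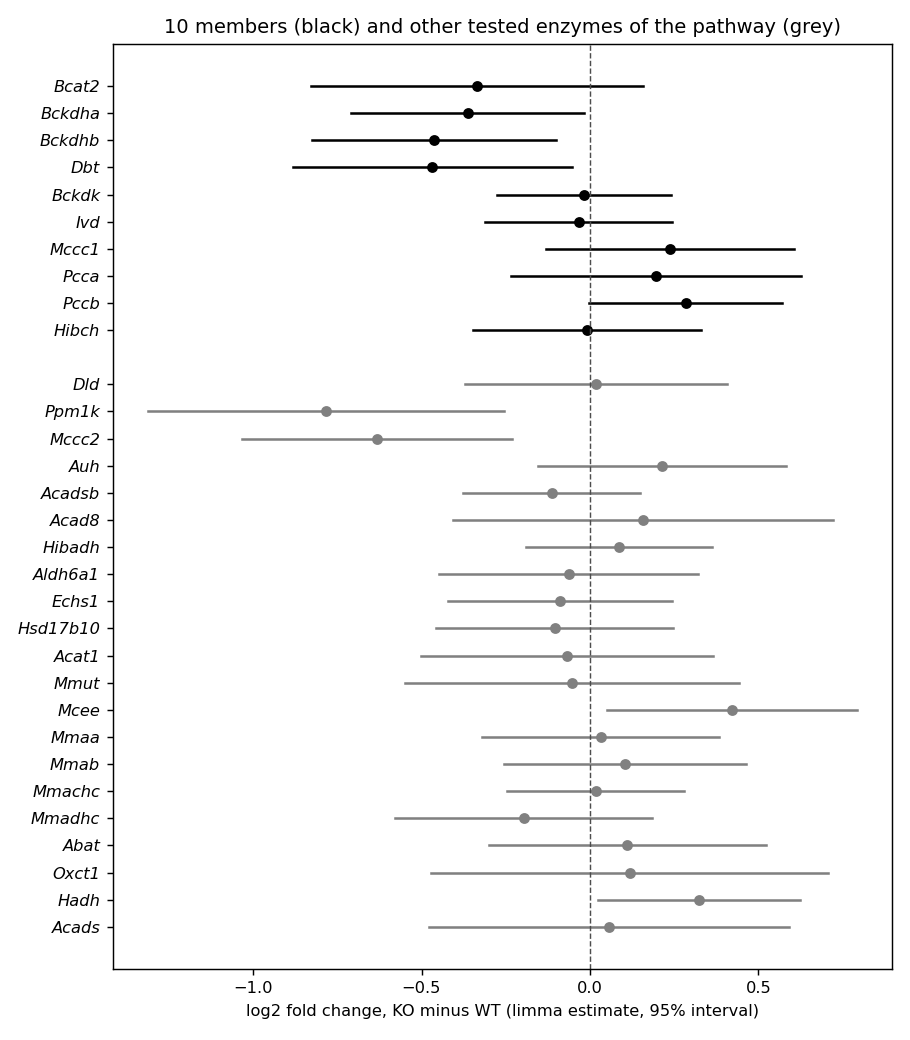
Log2 fold change of KO against WT with its 95% limma interval (x axis) for the 10 members (black) and the 21 other tested genes of the pathway (grey). The intervals of Bckdha, Bckdhb, Dbt, Ppm1k and Mccc2 lie below 0 and those of Mcee and Hadh above it, before any adjustment for the number of genes tested.

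Of 6 transporters of these amino acids, none had an unadjusted limma p under 0.05 and 2 were above 0 in the reported fit. The nearest were Slc7a5 (-0.41, SE 0.195) and Slc3a2 (-0.42, SE 0.212), the light and heavy chains of the plasma membrane carrier LAT1, with adjusted p of 0.494 and 0.518. Both had an unadjusted limma p under 0.05 with the replicate block (-0.58 and -0.66), with array weights (-0.53 and -0.46) and without KO 5 (-0.54 and -0.52), and Slc3a2 also without KO 4 (-0.50), though none passed after adjustment. Slc25a44, the mitochondrial carrier of branched-chain amino acids, was at 0.059 and Slc43a1 at 0.10. Of 8 regulators tested, 3 (37.5%, against 10.5% of all tested genes) had an unadjusted limma p under 0.05 and none passed after adjustment. Pparg, the nuclear receptor of adipocyte differentiation, was at -0.47 (SE 0.147, adjusted p = 0.331 in limma). It was lower in every KO array, with KO 3 (10.356) barely below WT 1 (10.369). Sesn1 and Sesn3, members of the sestrin family, were higher by 0.49 (SE 0.165, no overlap) and 0.91 (SE 0.281, KO 5 inside the WT range). Their adjusted p were 0.352 and 0.331 in limma. Sesn2, of the same family, went the other way, at -0.34 (SE 0.185, adjusted p = 0.547 in limma), and overlapped between the groups. Mlxipl, which encodes the carbohydrate-responsive factor ChREBP, was at -0.41 (adjusted p = 0.476). The unadjusted p of Sesn1 was over 0.05 without WT 3 (0.40), and that of Mlxipl was under 0.05 with the replicate block (-0.55), with array weights (-0.53), with a trended robust prior (-0.41) and without KO 5 (-0.54).

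Among 13 genes of the sister dehydrogenase complexes and their kinases and phosphatases, none passed after adjustment. An unadjusted limma p under 0.05 was found for 3 (23.1%, against 10.5% of all tested genes). Pdhb, the E1 beta subunit of pyruvate dehydrogenase, was at -0.40 (SE 0.175, adjusted p = 0.462 in limma). It was lower in every KO array, with KO 3 (8.376) barely below WT 2 (8.398). Its partner Pdha1, named after its value was seen, was at 0.17. The pyruvate dehydrogenase kinases Pdk1 (0.45) and Pdk4 (0.67) were higher and Pdk2 was at -0.25 (adjusted p of 0.352, 0.423 and 0.582 in limma). With the replicate block Pdhb was at -0.25 and no longer had an unadjusted p under 0.05, whereas Pdk2 (-0.39) had one. With 1 array left out, Pdhb kept such a p without KO 3 only, and Pdk4 without WT 1 (1.01) or KO 3 only, with its lowest value of 0.41 without WT 3. Pdk1 lost it without WT 1 (0.36) and with the mean of its probe sets (0.27), and Pdk2 was at -0.15 without WT 1. The other biotin carboxylases Acaca (-0.33), Pcx (-0.18) and Acacb (0.036) overlapped between groups. In the respiratory chain list, which marks mitochondria in general, 13 of 19 genes (68.4%) were above 0, against 44.8% of all tested genes. The median was 0.070, against -0.028 for all tested genes. The nearest to the threshold there were Ndufv1 (0.32), Ndufa9 (0.23), Ndufb8 (0.21) and Atp5b (0.16), with adjusted p of 0.434 to 0.646 in limma. Ndufv1 was the only 1 of the list with an unadjusted limma p under 0.05 in the reported fit (5.26%, against 10.5% of all tested genes). It lost such a p without WT 1, WT 2, WT 3, KO 1 or KO 2. The mean of the 10 members minus the mean of the respiratory chain list was 0.30 to 0.52 in WT and 0.15 to 0.33 in KO, which overlap. Against the mature adipocyte markers the same difference was -2.39 to -2.13 in WT and -2.34 to -2.22 in KO, with group means 0.014 apart.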

How the data were processed

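Values are the log2 signals deposited by the authors for 41345 probe sets on 8 arrays. The submitters' processing notes list RMA and oligo, whereas the series text lists Expression Console, and which of them was used is not known. No versions and no build are given. The arrays were labelled from 200 ng of RNA each, per the labels. Depth does not apply to arrays, and their number limits the precision. Gene names came from the platform table, in which 23521 have 1 symbol, 1814 several and 16010 none listed, and symbols were updated through RefSeq (23328 matched). Of several probe sets of a gene the one with the highest mean was kept, leaving 22180 genes. The 11090 at or above the median mean (3.61) were tested.

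The KO and WT groups were compared by two-sided moderated tests of limma 3.58.1 in R 4.3.3 (lmFit, eBayes). The p-values were adjusted by Benjamini-Hochberg across the tested genes, with 0.05 as the threshold. Single genes were also compared by an exact permutation test over the 56 splits of the arrays. The procedure was tested on simulated data. Plots were made in Python 3.11.15 with matplotlib 3.10.9. The members and gene lists were chosen with earlier results of these data known. Named are all members, Bcat1, Ppm1k, Abhd15, up to 4 genes with the smallest p of each further pathway list, and the 6 genes most like the members' mean. Dld, Pdha1, Sesn2, marker genes and the differences between partner genes were added. Same-numbered WT and KO arrays deviated together over the tested genes (r = 0.133, 0.103 and 0.192). These exceed 0.1, so the replicate numbers are treated as pairing in 1 alternative fit, although its meaning is not stated in the labels.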

Additional observations from a re-analysis of the deposited data

Results flagged for a closer look

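In the KO group, Mccc1 minus Mccc2 was 0.343 in KO 3, far from the 0.837 to 0.964 of the other 4 KO arrays, and nearer to the highest WT array (0.168). It was the only 1 of 41 values examined for an array standing apart within KO. A rule of this kind marks about 1 in 20 groups by chance.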

How the results depend on the processing

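Each result was recomputed under 18 alternatives, and no member passed the adjusted threshold in any. Of 180 member values 163 kept their sign. Genes past the adjusted threshold, 0 in the reported fit, numbered 2 with the replicate block, 40 with array weights, 3 with a trended robust prior and 0 to 5 when 1 array was left out. Genes with an unadjusted p under 0.05 (1164, 10.5%) numbered 1997 with the block (18.0%) and 1873 with array weights (16.9%). With no level filter they numbered 1871, but of 22180 genes tested (8.44%). They numbered 732 without WT 1 and KO 4, and 745 to 1596 with 1 array left out. Of the 1164 in the reported fit 38.5% were higher in KO, against 48.7% with centring and 54.4% with quantile normalization. Members with an unadjusted p under 0.05 (3 of 10) numbered 1 with centring (8.82% of all tested genes), 0 without WT 1 and KO 4 (6.60%), 2 with the block (18.0%), and 0 to 3 with 1 array left out (6.72% to 14.4%). They numbered 4 with array weights (16.9%), a trended robust prior (10.6%), quantile normalization (10.4%) and without KO 1 and KO 2 (9.49%). Members with no overlap fell from 4 to 2 with centring (7.11% of all tested genes). The median of the regulators was 0.139, 0.0035 without WT 1 and KO 4, and 0.026 to 0.22 with 1 array left out. The sign turned for Bckdk (0.023 with the block, 0.017 centred, 0.0090 quantile), Hibch (0.13 with the block, 0.093 with weights, 0.026 centred, 0.015 quantile, 0.12 without WT 1 and KO 4), Ivd (0.0092 with weights, 0.068 without WT 1 and KO 4), Acaca (0.022) and Pcx (0.091) with the block, and Pcca (-0.016) and Slc25a44 (-0.185) without KO 1 and KO 2. With 1 array left out, Bckdk ranged from -0.050 to 0.039, Ivd from -0.11 to 0.043, Hibch from -0.086 to 0.068, Slc25a44 from -0.058 to 0.15, Slc43a1 from -0.18 to 0.31 and Acacb from -0.053 to 0.11. The causes were not tested. The replicate block changed no adjusted call of a named gene.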
